A study of Mus musculus with 2 samples.

Results

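The CC chemokine genes of monocytes and macrophages were followed across mouse hearts under pressure overload: *Ccl2*, *Ccl7*, *Ccl12* and *Ccl8*, which encode the monocyte chemoattractant proteins, and *Ccl3*, *Ccl4*, *Ccl6* and *Ccl9*, which encode macrophage inflammatory proteins and their relatives. The members were taken by gene symbol, and 8 of 8 were found among the 27809 genes of the matrix. They were described by hashtag group and by source cell class, and the classes were cut from single-cell levels of *Csf1r*, *Lyz2*, *Lyve1*, *Gpnmb*, *Ccr2*, *Ly6c2* and *Cd209a*.

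CC chemokines are small secreted proteins that bind G protein-coupled receptors on leukocytes and direct their migration. Ccl2, Ccl7 and Ccl12 act mainly through Ccr2, the receptor that draws inflammatory monocytes out of the bone marrow and into injured tissue. Ccl3, Ccl6 and Ccl9 act through Ccr1. In the stressed heart the source of these ligands is of interest because monocytes that carry Ccr2 enter the myocardium after injury, whereas resident macrophages that express Lyve1 largely renew in place.

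The cells were CD45+ leukocytes from hearts of male mice on a C57BL/6 background, 8 weeks old, taken 1 week after a sham operation or transverse aortic constriction (TAC, a suture around the aortic arch that overloads the left ventricle), and read by TAS-Seq, a single-cell RNA method run on BD Rhapsody plates. WT mice gave a sham group, a TAC group and a TAC group given an antibody against CD8+ T cells from the day of surgery (anti-CD8 TAC), CD3ϵ-/- mice gave a sham and a TAC group, and these 5 hashtag groups were pooled in 1 cDNA library. CD3ϵ-/- mice lack a subunit of the T cell receptor complex in the germ line and so lack mature T cells from birth, whereas the antibody was given to adult mice with a normal history of T cells. The number of mice behind each hashtag is not given in the sources used here, so each group is 1 sample, no test between groups was possible, and every interval below covers counting error only.

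After the filters 5263 cells were kept, between 835 and 1615 a group, and 3612 of them passed a gate for monocytes and macrophages (*Csf1r* of 200 CPM or more and *Lyz2* of 1000 CPM or more, where CPM is reads per 1000000 reads of the cell). The gate held 600 cells of WT sham, 1166 of WT TAC, 649 of anti-CD8 TAC, 503 of CD3ϵ-/- sham and 694 of CD3ϵ-/- TAC hearts, with median depths from 77842 reads in WT sham to 129734 reads in CD3ϵ-/- TAC. *Cd3e* was read at 17.8 CPM in WT sham, 3.73 in CD3ϵ-/- sham, 10.8 in WT TAC, 5.64 in CD3ϵ-/- TAC cells and 13.6 in anti-CD8 TAC cells. By level its reads were thus lower but not absent in both CD3ϵ-/- groups, but by share they were not: 6.90% of WT sham, 5.03% of CD3ϵ-/- sham, 6.38% of WT TAC, 9.03% of CD3ϵ-/- TAC and 5.70% of anti-CD8 TAC cells held a read. *Cd3g*, another subunit of the same complex, had a read in 5.30% of WT sham and 2.91% of WT TAC cells against 0.359% of CD3ϵ-/- sham and 0.109% of CD3ϵ-/- TAC cells. *Cd8a* or *Cd8b1* was read in 9 cells, or 1.01% (95% exact binomial interval, 0.461 to 1.90), of the group labelled as depleted of CD8+ T cells. In WT TAC they were read in 19 cells, or 1.18% (0.710 to 1.83). The depletion was thus not visible in these few cells, and the name of the group rests on its label alone.

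The 8 genes lie on chromosome 11 in 2 blocks (RefSeq, GRCm38.p6). *Ccl2* (82035577 to 82037452), *Ccl7* (82045712 to 82047525), *Ccl12* (82101845 to 82103399) and *Ccl8* (82115185 to 82116799) span 81.2 kb, and *Ccl9* (83572917 to 83578636), *Ccl6* (83587886 to 83593087), *Ccl3* (83647843 to 83649378) and *Ccl4* (83648624 to 83664683) span 91.8 kb. The annotated spans of *Ccl3* and *Ccl4* overlap, so reads from the shared stretch could have been counted for either gene. Promoter windows were at hand for 5 of the 8 members, and those of *Ccl12* and *Ccl8*, the members that were higher after TAC, of *Ccl3*, which was lower, and of *Ccl9*, which was near its sham level in WT mice, are given as the 250 bases before the annotated start, on the strand of the gene. Capitals mark matches on either strand to TATAAA, to the AP-1 site TGANTCA, to the kappaB consensus or to the consensus of the interferon-stimulated response element.
Ccl12, chr11:82101595-82101844, plus strand: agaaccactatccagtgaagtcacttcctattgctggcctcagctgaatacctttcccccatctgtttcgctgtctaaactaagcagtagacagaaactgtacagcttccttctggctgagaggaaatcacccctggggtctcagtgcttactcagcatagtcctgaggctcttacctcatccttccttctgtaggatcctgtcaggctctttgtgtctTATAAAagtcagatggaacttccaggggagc
Ccl8, chr11:82114935-82115184, plus strand: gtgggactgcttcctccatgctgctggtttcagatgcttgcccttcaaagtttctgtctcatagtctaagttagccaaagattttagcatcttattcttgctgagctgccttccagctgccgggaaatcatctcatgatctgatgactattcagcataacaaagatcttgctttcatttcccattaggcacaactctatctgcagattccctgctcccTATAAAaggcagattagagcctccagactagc
Ccl3, chr11:83649379-83649628, minus strand: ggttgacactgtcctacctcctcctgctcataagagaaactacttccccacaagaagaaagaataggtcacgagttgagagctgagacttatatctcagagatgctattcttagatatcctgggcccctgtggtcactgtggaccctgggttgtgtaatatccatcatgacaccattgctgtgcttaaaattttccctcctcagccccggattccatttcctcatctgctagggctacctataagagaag
Ccl9, chr11:83578637-83578886, minus strand: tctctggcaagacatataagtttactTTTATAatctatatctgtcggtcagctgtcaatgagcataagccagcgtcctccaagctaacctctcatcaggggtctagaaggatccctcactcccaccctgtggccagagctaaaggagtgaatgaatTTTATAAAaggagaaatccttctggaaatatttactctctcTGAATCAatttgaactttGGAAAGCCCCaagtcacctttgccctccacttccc

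*Ccl12* and *Ccl8* each held a TATAAA match that began 31 and 32 bases before the start, and 12.3% of 32536 promoter windows of this length held this motif. *Ccl9* held the 1 kappaB match (7.28% of all windows) and the 1 AP-1 match (6.73%) among the 5 windows, and it also held 3 matches to TATAAA, of which those 94 and 92 bases before the start overlapped. No window of the 5 held the interferon-stimulated response element, which 0.827% of all windows did. *Ccl2*, *Ccl7* and *Ccl4* are named only.

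The monocyte chemoattractant proteins did not move together after TAC. *Ccl12* and *Ccl8* were higher in gated cells of TAC than of sham hearts in both genotypes. *Ccl7* was nearly level, and *Ccl2* was lower except in the anti-CD8 TAC group. Without the 25% of cells highest in digestion-response genes, *Ccl2* in WT TAC cells turned to slightly higher than in WT sham cells (log2 ratio from -0.35 to 0.08). *Ccl2* was read at 558 CPM in WT sham, 693 in CD3ϵ-/- sham, 435 in WT TAC, 482 in CD3ϵ-/- TAC cells and 632 in anti-CD8 TAC cells. Its level was highest in CD3ϵ-/- sham and lowest in WT TAC, and the anti-CD8 TAC group lay above both other TAC groups and above WT sham. *Ccl7*, another ligand of Ccr2, was read at 119.8, 139, 140.5, 146 and 151 CPM in the same order of groups, the narrowest range of the 4 genes.

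*Ccl12*, a Ccr2 ligand found in rodents, was read at 107 CPM in WT sham, 97.5 in CD3ϵ-/- sham, 169 in WT TAC, 295 in CD3ϵ-/- TAC cells and 236 in anti-CD8 TAC cells. The 3 TAC groups lay above both sham groups, and the Poisson intervals of the 5 groups did not overlap. *Ccl8* was read at 10.5 CPM in WT sham, 1.09 in CD3ϵ-/- sham, 40.6 in WT TAC, 28.1 in CD3ϵ-/- TAC cells and 15.4 in anti-CD8 TAC cells. WT TAC was highest and CD3ϵ-/- sham lowest, and the level rested on few cells: 116 of 3612 gated cells held a read of *Ccl8*, and 1 cell gave 53.0% of its reads in WT sham and 59.4% in CD3ϵ-/- sham.

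**Figure D1:**
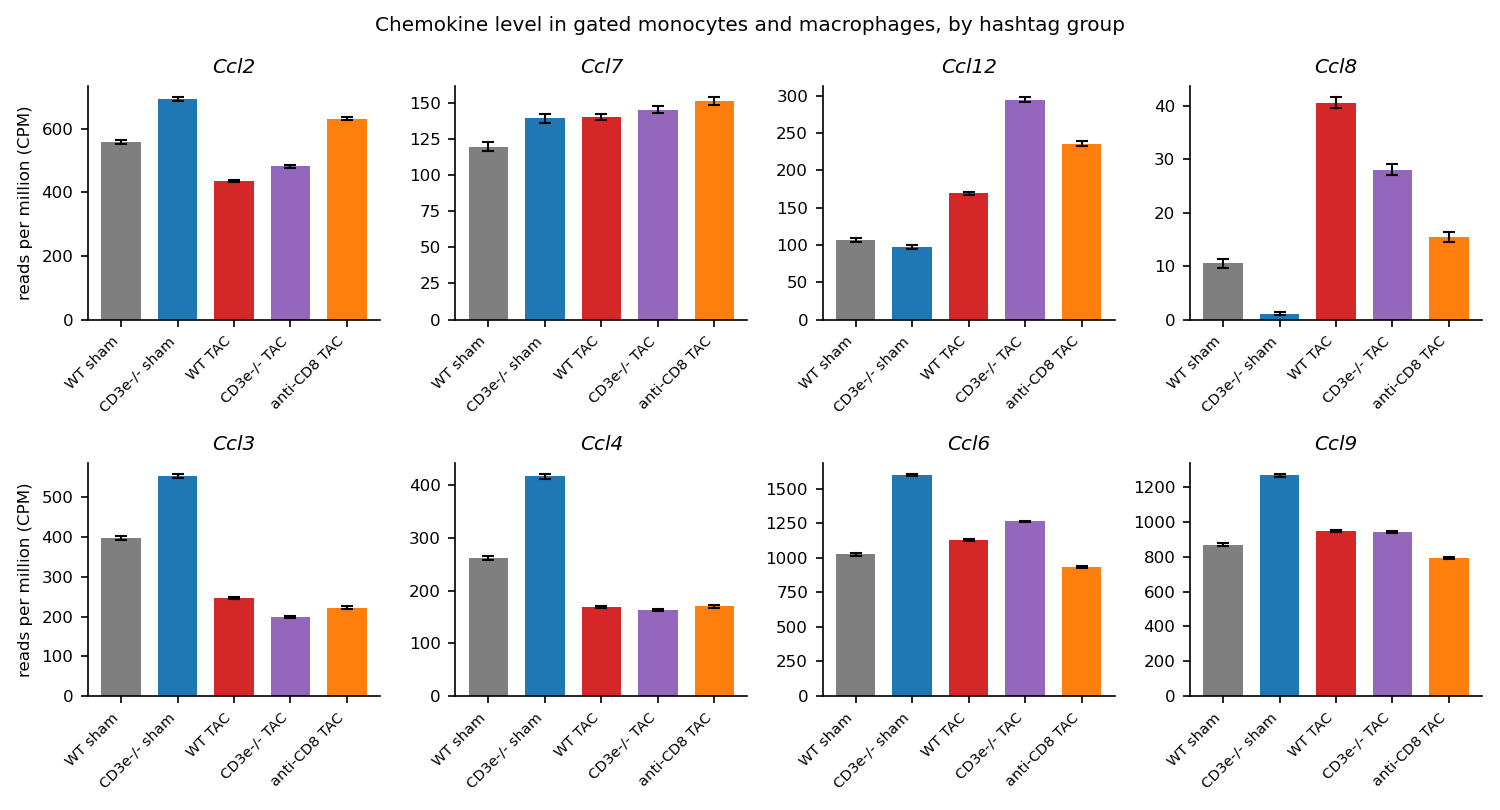
Level of each chemokine in gated monocytes and macrophages, as reads per 1000000 reads summed over the cells of a hashtag group, with exact Poisson 95% intervals of the reads; each group is 1 sample. *Ccl12* and *Ccl8* stand higher in the 3 TAC groups than in both sham groups, and *Ccl3* and *Ccl4* stand lower.

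*Ccl3* and *Ccl4*, which encode MIP-1 alpha and MIP-1 beta, went the other way. *Ccl3* was read at 397 CPM in WT sham, 554 in CD3ϵ-/- sham, 247 in WT TAC, 199 in CD3ϵ-/- TAC cells and 222 in anti-CD8 TAC cells. *Ccl4* was read at 262, 417, 168, 163 and 171 CPM in these groups. For both genes CD3ϵ-/- sham was highest, WT sham next, and the 3 TAC groups lay close to each other below them.

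*Ccl6* and *Ccl9*, ligands of Ccr1 that macrophages express without stimulation, were present in most gated cells. *Ccl6* was read at 1025 CPM in WT sham, 1601 in CD3ϵ-/- sham, 1131 in WT TAC, 1265 in CD3ϵ-/- TAC cells and 937 in anti-CD8 TAC cells. *Ccl9* was read at 871, 1269.5, 947, 945 and 793 CPM. Both were highest in CD3ϵ-/- sham and lowest in the anti-CD8 TAC group, and WT TAC and CD3ϵ-/- TAC differed for *Ccl9* by less than the counting error.

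Summed levels can move because more cells express a gene or because each expressing cell holds more of it, so shares of cells were compared after each cell had been thinned to 30000 reads. This left out 117 gated cells, between 17 and 33 a group. *Ccl12* was read in 15.0% of WT sham cells (12.2 to 18.2), 17.2% of CD3ϵ-/- sham cells (14.0 to 20.9), 21.8% of WT TAC cells (19.4 to 24.3), 31.7% of CD3ϵ-/- TAC cells (28.2 to 35.3) and 26.4% of anti-CD8 TAC cells (23.0 to 30.1). Without thinning these shares were 14.3%, 17.5%, 21.8%, 31.6% and 26.5%. They rose in the same order as the median depth of the gated cells. This depth was 77842 reads in WT sham, 85528 in CD3ϵ-/- sham, 102310 in WT TAC, 106274 in anti-CD8 TAC and 129734 in CD3ϵ-/- TAC. Small counts had been removed before thinning (the smallest left for *Ccl12* was 8 reads), so thinning cannot fully level the depth. The part of depth in these shares was not tested. The median level among cells with a read of *Ccl12* was 452, 480, 384, 498 and 478 CPM, so the share of cells, and not this median, followed the TAC groups. The median does not reflect the cells with the most reads, and the top 1% of gated cells gave 32.1% of the *Ccl12* reads.

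The reverse held for *Ccl3*. It was read in 33.2%, 39.2%, 31.4%, 33.3% and 27.7% of thinned cells. The intervals of sham and TAC cells overlapped within each genotype, but those of CD3ϵ-/- sham (34.8 to 43.7) and anti-CD8 TAC (24.2 to 31.4) did not. The median level among cells with a read, taken without thinning, was 742 CPM in WT sham and 845 in CD3ϵ-/- sham. This median was 495, 384 and 481 CPM in WT TAC, CD3ϵ-/- TAC and anti-CD8 TAC cells. *Ccl4* was likewise read in 23.1%, 31.5%, 24.1%, 27.4% and 26.1% of thinned cells, with medians of 637 and 680 CPM in the sham groups against 402, 358 and 408 CPM in the TAC groups. *Ccl8* was read in 1.22% of WT sham, 0.622% of CD3ϵ-/- sham, 4.32% of WT TAC, 5.92% of CD3ϵ-/- TAC and 1.74% of anti-CD8 TAC cells.

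B cells, which are not known as a main source of these ligands, served as the background. Over all groups 2.43% of thinned B cells held a read of *Ccl2*, 0.27% of *Ccl12*, 1.89% each of *Ccl3* and *Ccl4*, 5.39% of *Ccl6* and 6.47% of *Ccl9*. None held a read of *Ccl7* or *Ccl8*, which allows a share of up to 0.989%. B cells were shallower, with a median of 49332 reads. The shares in gated cells lay above these values for each member except *Ccl8* in CD3ϵ-/- sham, which lay under that limit. For *Ccl8* the intervals of WT sham (0.493 to 2.51) and anti-CD8 TAC (0.872 to 3.09) also reached below that limit.

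**Figure D2:**
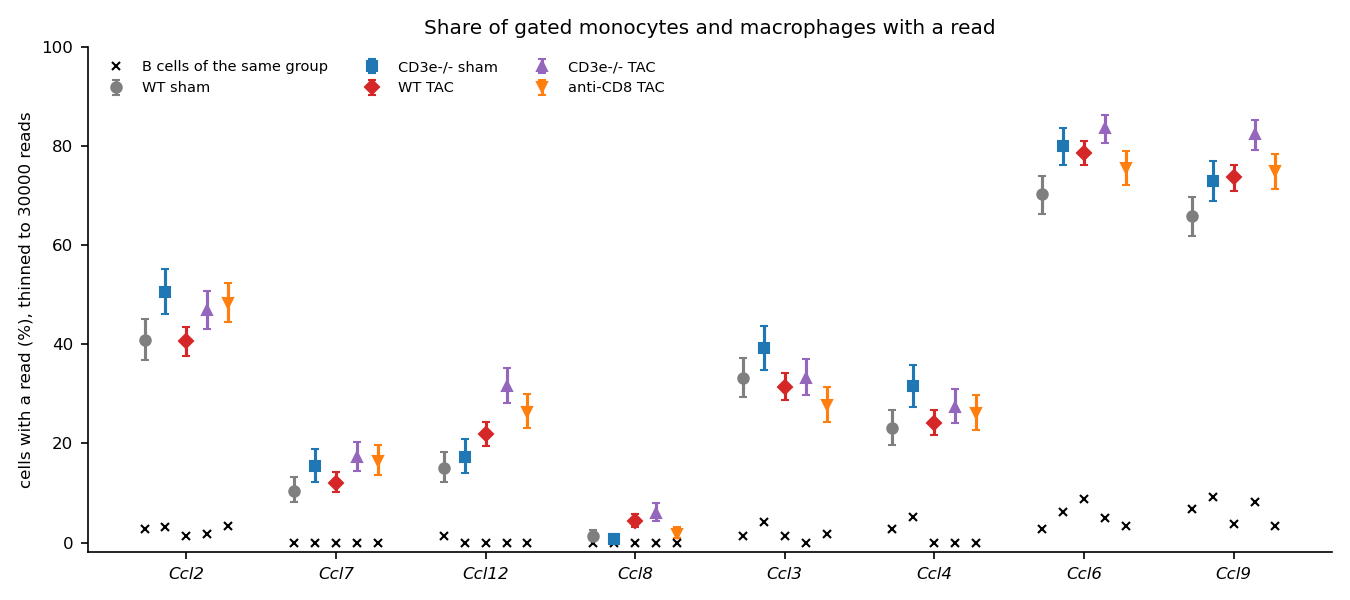
Share of gated monocytes and macrophages with at least 1 read of each chemokine after thinning to 30000 reads, by hashtag group, with exact binomial 95% intervals; crosses give the B cells of the same group. The share for *Ccl12* goes from 15.0% in WT sham to 31.7% in CD3ϵ-/- TAC, while that for *Ccl3* stays between 27.7% and 39.2%.

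Ratios between groups were taken as the log2 of summed CPM with 10 CPM added to both, and a ratio of 2-fold or more was counted. In WT mice 1 of 8 members, *Ccl8*, was 2-fold or more higher after TAC (log2 ratio 1.30), against 0.821% of 9505 genes, and no member was 2-fold lower, against 0.558% of genes. The other ratios ran from -0.66 for *Ccl3* and -0.61 for *Ccl4* to 0.62 for *Ccl12*, with a median of 0.13 over the 8 members and 0.02 over all genes. This count rested on the few cells with the most *Ccl8*: without the 1% of cells highest in a member, its ratio was 0.88.

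In CD3ϵ-/- mice 2 members were 2-fold or more higher after TAC, *Ccl12* (1.51) and *Ccl8* (1.78), against 1.48% of genes, and 2 were 2-fold or more lower, *Ccl3* (-1.43) and *Ccl4* (-1.30), against 0.968% of genes. *Ccl2* (-0.52), *Ccl9* (-0.42) and *Ccl6* (-0.34) were lower by less than 2-fold and *Ccl7* (0.06) was level. The ratio for *Ccl8* rested on 3 cells with a read in CD3ϵ-/- sham.

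T cell deficiency without pressure overload gave no member past 2-fold in either direction, against 0.274% of genes higher and 0.231% lower. The members other than *Ccl12* and *Ccl8* were nevertheless higher in CD3ϵ-/- sham than in WT sham cells, by 0.65 for *Ccl4*, 0.64 for *Ccl6*, 0.54 for *Ccl9*, 0.47 for *Ccl3*, 0.31 for *Ccl2* and 0.20 for *Ccl7*, with a median over the 8 members of 0.39 against -0.03 over all genes. *Ccl12* (-0.12) and *Ccl8* (-0.89) were lower. This comparison shares WT sham cells with that of WT TAC.

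After TAC no member differed by 2-fold between CD3ϵ-/- and WT cells, against 0.347% of genes higher and 0.147% lower. *Ccl12* differed most, with a log2 ratio of 0.77 and levels of 295 against 169 CPM. Nor did a member pass 2-fold between the anti-CD8 TAC group and WT TAC, against 0.105% of genes higher and 0.0947% lower. *Ccl8* stood just inside the cut at -0.99, *Ccl2* was at 0.53 and *Ccl12* at 0.46, and the other 5 lay between -0.27 and 0.10. Both comparisons share the WT TAC cells.

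**Figure D3:**
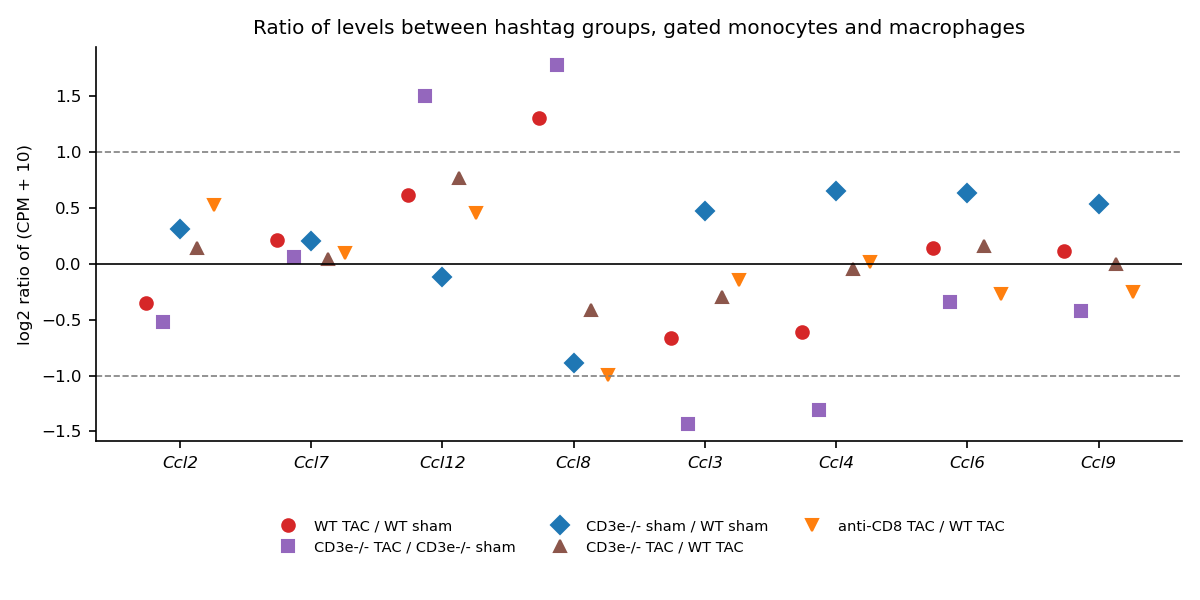
Log2 ratio of (CPM + 10) between hashtag groups for each chemokine, in gated monocytes and macrophages; dashed lines mark 2-fold. *Ccl12* and *Ccl8* lie above the upper line and *Ccl3* and *Ccl4* below the lower line for CD3ϵ-/- TAC against CD3ϵ-/- sham, and *Ccl8* alone lies above it for WT TAC against WT sham.

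The gated cells were divided in a fixed order into cells with *Lyve1* of 100 CPM or more (209 cells), *Gpnmb* of 200 or more (148), *Ly6c2* of 500 or more (528), *Cd209a* of 200 or more (144), *Ccr2* of 1000 or more (1227), and the Ccr2-low rest (1356). *Lyve1* marks resident macrophages, *Gpnmb* lipid-laden macrophages, *Ly6c2* inflammatory monocytes and *Cd209a* cells close to dendritic cells. The classes are ranges of a continuous level and not cell types, and 443 gated cells lay within 1.5 times of the *Ccr2* cut and 161 of the *Ly6c2* cut. The Ly6c2 class took 4% of gated cells in WT sham, 6.56% in CD3ϵ-/- sham, 13.6% in WT TAC, 24.4% in CD3ϵ-/- TAC hearts and 22.0% in anti-CD8 TAC hearts. The Lyve1 class took 12.5%, 6.16%, 4.63%, 2.45% and 4.93%.

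The leading class differed between chemokines, with the Lyve1 class leading for *Ccl7* and *Ccl12* and the Ccr2-low class for *Ccl3* and *Ccl4* when the groups were pooled. Over all groups *Ccl2* was highest in Ly6c2 cells at 877 CPM, against 533 in Ccr2 cells and between 346 and 450 in the other 4 classes. *Ccl7* was highest in Lyve1 cells at 230 CPM (95% Poisson interval, 224 to 236), against 168 in Ly6c2 cells. *Ccl12* was highest in Lyve1 cells at 341 CPM (334 to 348), then in Ly6c2 cells at 291 (287 to 295) and Ccr2-low cells at 246, and lowest in Cd209a cells at 40.8. *Ccl8* was highest in Gpnmb cells at 142 CPM and Lyve1 cells at 74.8, and no read was found in 144 Cd209a cells, which allows a share of up to 2.53%.

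*Ccl3* was highest in Ccr2-low cells at 404 CPM, against 276 in Ly6c2 cells and 123 in Cd209a cells. *Ccl4* was highest in Ccr2-low cells at 258 CPM (255 to 260.3), and Cd209a cells at 256 (249 to 262) did not differ from them beyond counting error. *Ccl6* was highest in Ccr2 cells at 1440.0 CPM and lowest in Ccr2-low cells at 828. *Ccl9* was highest in Cd209a cells at 1186 CPM (1173 to 1199), with Ccr2 cells next at 1155 (1150 to 1160). By number of reads, Ccr2 cells held 36.2%, Ly6c2 cells 27.5% and Ccr2-low cells 23.7% of all gated *Ccl2* reads, and Ccr2-low cells held 42.0% of the *Ccl3* reads.

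These pooled orders mix groups with different shares of the classes, and they did not hold in every group. The pooled leader also led in 4 of 5 groups for *Ccl8*, in 3 of 5 for *Ccl2*, *Ccl7* and *Ccl12*, and in 2 of 5 for *Ccl3*, *Ccl4*, *Ccl6* and *Ccl9*. Ly6c2 cells led for *Ccl2* in the 3 TAC groups, whereas in WT sham Ccr2 cells stood at 691 CPM against 604 in Ly6c2 cells, and in CD3ϵ-/- sham Lyve1 cells stood at 1128 CPM and Ccr2 cells at 809 against 650 in Ly6c2 cells. *Ccl12* in Ccr2-low cells of WT sham, at 181 CPM, lay above Lyve1 cells at 171, and in CD3ϵ-/- TAC Ly6c2 cells at 413 CPM lay above Lyve1 cells at 404. In both cases the Poisson intervals overlapped, so these orders of *Ccl12* did not go beyond counting error. *Ccl7* of WT TAC hearts stood at 195 CPM in Ly6c2 and 176 in Gpnmb cells against 117 in Lyve1 cells. With the class gates applied in reverse order 4 of 8 members kept their pooled leading class.

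Outside the gate, 37 neutrophils held *Ccl3* at 1712 CPM and *Ccl6* at 2762 CPM but no read of *Ccl2*, *Ccl7*, *Ccl12* or *Ccl8*. The 170 T or NK cells held *Ccl4* at 569 CPM, a level above that of each gated class, and *Ccl3* at 238 CPM. The 852 cells that passed no gate held *Ccl2* at 464 CPM and *Ccl7* at 166 CPM, and they gave 15.3% of all *Ccl2* reads and 19.8% of all *Ccl7* reads. Fibroblast and mast cell genes were read outside the gate. *Dcn*, a fibroblast gene, stood at 467 CPM over all kept WT sham cells and at 0 in gated ones. The sum of 3 mast cell markers stood at 2545 CPM over all kept cells of WT sham and 1344 CPM in CD3ϵ-/- sham, against 305, 46.5 and 331 CPM in WT TAC, CD3ϵ-/- TAC and anti-CD8 TAC hearts, while inside the gate it was at most 74.4 CPM. Their part in the *Ccl2* and *Ccl7* of ungated cells was not tested.

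Within the classes, *Ccl12* stood higher in TAC than in sham cells of the same genotype wherever both groups had 10 or more gated cells. In Ly6c2 cells it was read in 0 of 24 cells of WT sham, which allows a share of up to 14.2%, and in 2 of 33 cells of CD3ϵ-/- sham. After TAC it was read in 36 of 159 such cells of WT, 53 of 169 of CD3ϵ-/- and 45 of 143 of anti-CD8 hearts. The levels were 0, 45.4, 233, 413 and 277 CPM. In Ccr2 cells *Ccl12* stood at 30.7, 69.1, 115, 214 and 170.5 CPM, again with the 3 TAC groups on top. In Ccr2-low cells it stood at 181, 139, 235, 350.3 and 289 CPM. In Lyve1 cells, which number 17 in CD3ϵ-/- TAC and between 31 and 75 in the other groups, it stood at 171, 173, 364, 404 and 683 CPM. The share of Lyve1 cells with a read was 25.3%, 25.8%, 29.6%, 23.5% (4 of 17 cells) and 31.25% in the same order. This share did not rise with the level in CD3ϵ-/- mice. In WT mice *Ccl12* went from 19.0 CPM in sham (1 of 12 cells with a read) to 90.1 in TAC (11 of 67) in Gpnmb cells. In Cd209a cells of WT mice it went from 0 (0 of 33 cells) to 78.1 CPM (3 of 44). In both of these classes the intervals of the sham and TAC shares overlapped.

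*Ccl7*, level over all gated cells, stood higher in summed CPM in Ly6c2 cells of TAC than of sham hearts. It was read in 1 of 24 cells in WT sham, 0 of 33 cells in CD3ϵ-/- sham, 28 of 159 in WT TAC, 18 of 169 in CD3ϵ-/- TAC and 32 of 143 in anti-CD8 TAC hearts, at 11.1, 0, 195, 153 and 217 CPM. The intervals of these shares overlapped between sham and TAC in WT mice (0.105% to 21.1% against 12.0% to 24.4%). They also overlapped in CD3ϵ-/- mice (up to 10.6% against 6.44% to 16.3%). In Lyve1 cells it stood at 169 CPM in WT sham and 496 in CD3ϵ-/- sham against 117, 333 and 198 CPM in the TAC groups of the same order. No order by surgery held there, since the anti-CD8 TAC group lay above WT sham, the mean of single-cell CPM was 112 in WT sham against 143 in WT TAC, and 8 of 31 cells of CD3ϵ-/- sham against 8 of 17 of CD3ϵ-/- TAC held a read. The summed level of *Ccl2* differed in direction between these classes: in Ly6c2 cells it stood at 604, 650, 880, 786 and 1102 CPM, with the TAC groups on top, and in Lyve1 cells at 510, 1128, 216, 404 and 228 CPM, with the sham groups on top in each genotype. By mean of single-cell CPM, Ly6c2 cells of WT sham (739) lay above those of CD3ϵ-/- TAC (713). The shares of Ly6c2 cells with a read were 66.7%, 60.6%, 63.5%, 59.8% and 69.9%, with no order by surgery. Of Lyve1 cells, 45.3% in WT sham and 50% in anti-CD8 TAC held a read.

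*Ccl8* in Ccr2-low cells separated the TAC groups. It was read in 24 of 379 cells of WT TAC (6.33%, 4.10 to 9.28) and 23 of 221 cells of CD3ϵ-/- TAC (10.4%, 6.71 to 15.2), against 1 of 221 cells in the anti-CD8 TAC group (0.452%, 0.0115 to 2.50), 1 of 311 cells of WT sham and 1 of 224 cells of CD3ϵ-/- sham. The levels were 63.8 and 45.8 CPM in WT TAC and CD3ϵ-/- TAC against 0.266, 0.485 and 0.384 CPM. In Gpnmb cells, where *Ccl8* was highest, the levels of the 3 TAC groups were 173, 125 and 121 CPM, with 9, 9 and 5 cells with a read.

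The lower *Ccl3* and *Ccl4* of TAC hearts were seen in Ccr2-low cells in both genotypes, and not in these cells alone. In Ccr2-low cells *Ccl3* stood at 627 CPM in WT sham and 916 in CD3ϵ-/- sham against 233 in WT TAC, 179 in CD3ϵ-/- TAC cells and 297 in anti-CD8 TAC cells. *Ccl4* stood at 355 and 612 against 164, 131 and 161 CPM. In Ly6c2 cells the spread of both genes was smaller, from 220.2 to 420.1 CPM for *Ccl3* and from 194 to 304 CPM for *Ccl4*. The log2 ratio of *Ccl3* after TAC in CD3ϵ-/- mice was -2.32 in Lyve1 cells (409 to 74.1 CPM) and -1.06 in Ccr2 cells, against -2.29 in Ccr2-low cells. In WT mice it was -1.39 in Ccr2-low cells, -0.80 in Gpnmb cells and -0.08 in Lyve1 cells, and 0.37 in Ccr2 cells. For *Ccl4* it was -1.22 in Lyve1, -1.07 in Ccr2-low, -0.98 in Gpnmb and -0.62 in Ly6c2 cells of WT mice. In Ccr2 cells of WT mice the *Ccl4* ratio was -0.08 and in Cd209a cells 0.22. In CD3ϵ-/- mice it was -2.14 in Ccr2-low, -1.31 in Ccr2 and -0.77 in Lyve1 cells, but 0.22 in Ly6c2 cells. *Ccl6* and *Ccl9* in Ccr2-low cells were highest in CD3ϵ-/- sham, at 1383 and 988 CPM against 627 and 419 CPM in WT sham.

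**Figure D4:**
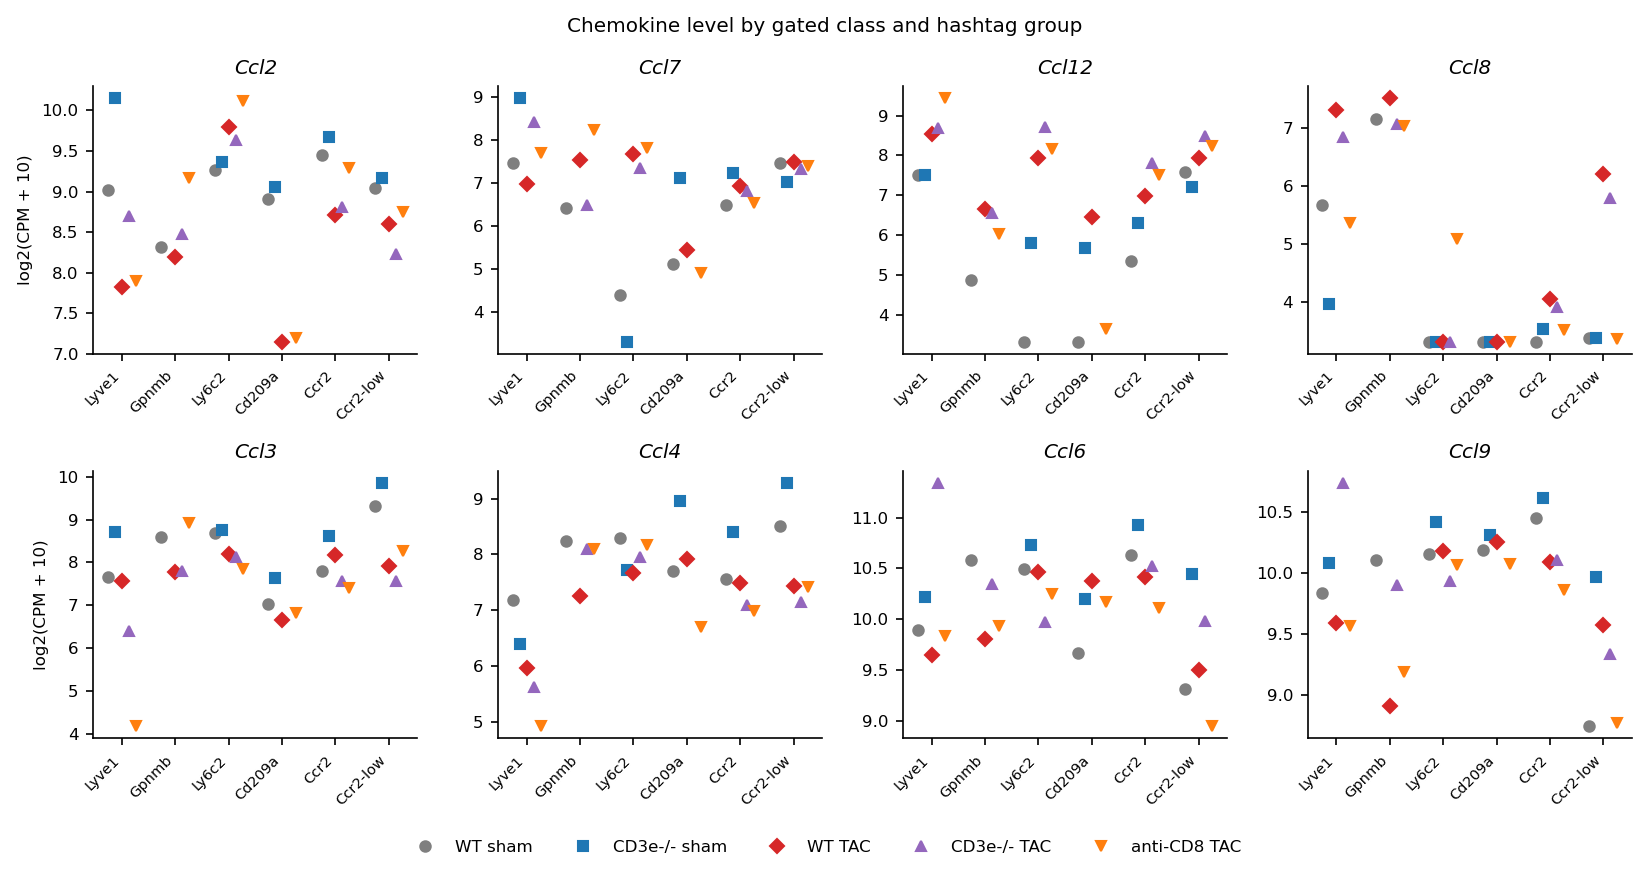
Log2(CPM + 10) of each chemokine in the 6 classes of gated cells, 1 point for each hashtag group with 10 or more cells in the class. The levels of *Ccl12* and *Ccl7* in Ly6c2 cells stand apart by surgery, with 24 WT sham and 33 CD3ϵ-/- sham cells. For *Ccl7* the intervals of the shares of cells with a read overlapped between sham and TAC in each genotype. *Ccl8* in Ccr2-low cells stands high in WT TAC and CD3ϵ-/- TAC only.

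Lists of related genes were read in the same gated cells. Of the 8 interferon response genes, 8 were 2-fold or more higher in WT TAC than in WT sham (median log2 ratio 1.93) and 7 in CD3ϵ-/- TAC than in CD3ϵ-/- sham (1.94), against 0.821% and 1.48% of all genes and medians over all genes of 0.02 and 0.04. *Irf7*, a regulator of interferon genes, stood at 51.5, 64.9, 239, 370 and 365 CPM. With the groups pooled, the interferon list summed to 3511 CPM in Ly6c2 cells, against 314 to 793 CPM in the other gated classes. Ly6c2 cells made up a larger share of the TAC groups, and the part of this share in the ratios was not tested. Of the 10 NF-kB targets and inducing cytokines, 2 were 2-fold lower after TAC in WT cells (*Nfkbiz* and *Il6*, median over the list -0.52) and 3 in CD3ϵ-/- cells (*Nfkbiz*, *Tnfaip3* and *Tnf*, median -0.64), and none was higher, against 0.558% and 0.968% of all genes lower. *Tnf*, an inflammatory cytokine under NF-kB control, stood at 94.8 and 110.4 CPM in the sham groups and at 49.7, 39.7 and 49.0 CPM in the TAC groups. Among the receptors *Ccr1*, which binds Ccl3, Ccl6 and Ccl9, was past 2-fold in WT cells (48.7 to 133 CPM, log2 ratio 1.28) and short of it in CD3ϵ-/- cells (106 to 203 CPM, 0.87).

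A list of 10 genes that respond to tissue digestion was lower after TAC alongside *Ccl3* and *Ccl4*. Their summed level in gated cells was 15462 CPM in WT sham, 13621 in CD3ϵ-/- sham, 8008 in WT TAC, 7116 in CD3ϵ-/- TAC cells and 8007 in anti-CD8 TAC cells, and 5 of 10 were 2-fold or more lower after TAC in each genotype (medians -0.95 and -0.96), against 0.558% and 0.968% of all genes. When the 25% of gated cells with the highest sum were left out, 41.8% of WT sham and 39.8% of CD3ϵ-/- sham cells were lost, against 13.3% to 19.9% of the TAC groups. The remaining cells held *Ccl3* at 176 CPM in WT sham, 286 in CD3ϵ-/- sham, 169.7 in WT TAC, 179 in CD3ϵ-/- TAC hearts and 171 in anti-CD8 TAC hearts. The ratio of *Ccl3* after TAC was then -0.05 in WT and -0.65 in CD3ϵ-/- cells, that of *Ccl4* was 0.44 and -0.56, and neither passed 2-fold. *Ccl12* became 2-fold or more higher in both genotypes (1.20 and 1.95), and *Ccl8* remained so (1.15 and 1.86). The part of digestion in these levels was not tested.

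**Figure D5:**
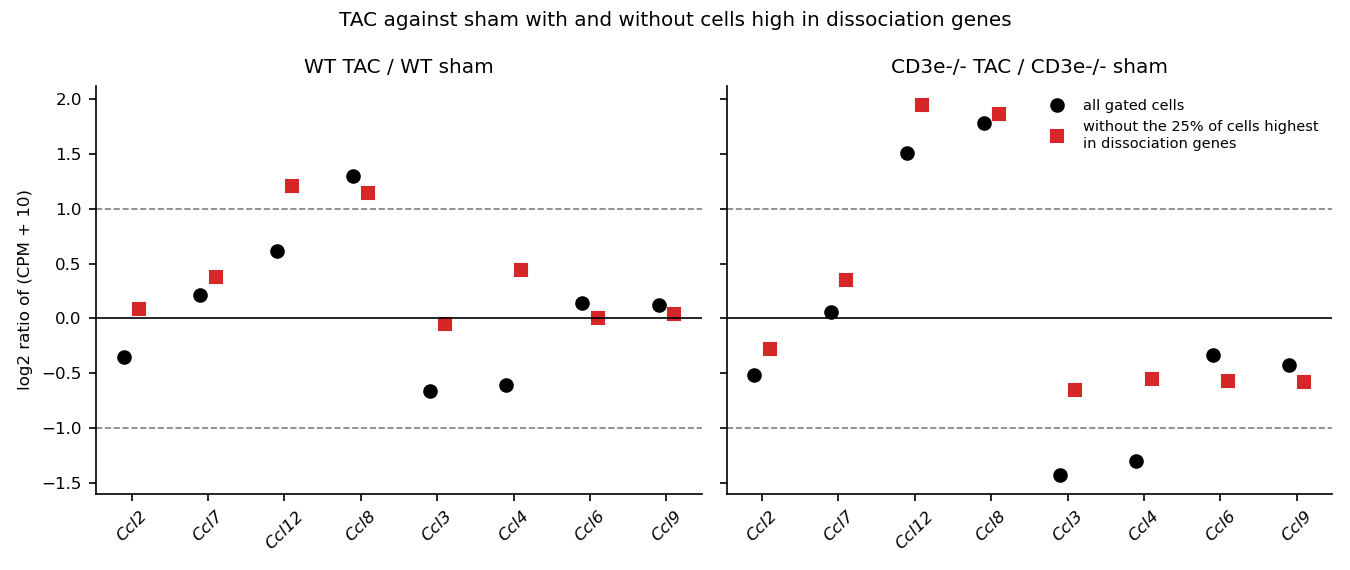
Log2 ratio of (CPM + 10), TAC against sham, for each chemokine with all gated cells (circles) and without the 25% of gated cells highest in the 10 dissociation genes (squares), in WT (left) and CD3ϵ-/- (right) cells; dashed lines mark 2-fold. *Ccl3* moves from -0.66 to -0.05 in WT cells and from -1.43 to -0.65 in CD3ϵ-/- cells, and *Ccl12* moves up in both.

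Markers of other cells were low inside the gate. The summed levels of 3 B cell markers ran from 16.5 to 69.8 CPM, of 3 T cell markers from 1.60 to 11.8 CPM, of 3 NK cell markers from 1.57 to 8.56 CPM, of 4 neutrophil markers from 45.6 to 231 CPM and of 3 mast cell markers from 9.38 to 74.4 CPM. The sums for dendritic cells of type 1 ran from 4.50 to 11.3 CPM, for endothelial cells from 5.96 to 14.0 CPM and for cardiomyocytes from 5.84 to 15.4 CPM, and *Dcn* was at 0 in 4 of the 5 groups and at 46.4 CPM in CD3ϵ-/- sham. *S100a8* was at 0 in WT sham and highest, at 67.0 CPM, in anti-CD8 TAC cells. Of the 3612 gated cells, 55 also passed a gate for B, T or NK cells, and leaving them out moved no count of members past 2-fold. The part of the other markers in the chemokine levels was not tested.

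Some pairs of chemokines were read together in single cells more often than others; doublets of the same hashtag are not marked and remain among these cells. Among 3495 thinned gated cells, 83.1% of cells with a read of *Ccl7* also held *Ccl2* (79.5 to 86.3), against 38.4% of cells without *Ccl7*, and 49.2% held *Ccl12*, against 18.5%. Of cells with *Ccl4*, 62.5% held *Ccl3*, against 21.9% of cells without it, and of cells with *Ccl9*, 85.8% held *Ccl6*, against 55.0%. *Ccl8* went with *Ccl12* (48.2% against 22.0%) and *Ccl7* (29.1% against 13.6%) but its cells held *Ccl2* no more often than the rest (40.0% against 44.8%, intervals overlapping). The median cell held 3 of the 8 members, 158 cells (4.52%) held none and 3 cells held all 8.

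Reads of most members were concentrated in few cells. The 10% of gated cells with the most reads of a gene gave all of the *Ccl8* reads, 96.3% of the *Ccl7* reads and 86.3% of the *Ccl12* reads. They gave 78.1% of the *Ccl4* reads, 72.0% of the *Ccl3* reads, 65.6% of the *Ccl2* reads, 57.5% of the *Ccl6* reads and 51.7% of the *Ccl9* reads. The top 1% of cells gave 80.9% of the *Ccl8* reads, 41.2% of the *Ccl7* reads and 32.1% of the *Ccl12* reads, and between 14.2% and 23.8% for the other 5 members.

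Over the 28 levels of classes and groups with 10 or more cells, the most alike pairs were *Ccl6* and *Ccl9* (Pearson r of log2(CPM + 10), 0.84), *Ccl3* and *Ccl4* (0.72) and *Ccl7* and *Ccl12* (0.68). Each of these pairs lies in 1 block, but likeness did not follow the blocks in general. *Ccl2* and *Ccl3*, of different blocks, had r = 0.53. Within blocks, *Ccl2* and *Ccl8* had r = -0.32 and *Ccl2* and *Ccl12* 0.08, and *Ccl3* and *Ccl4* had r from -0.12 to 0.05 with *Ccl6* and *Ccl9*. Among 6234 genes those most like *Ccl12* were *Dclre1c* (0.85), *Cybc1* (0.84) and *Tmed4* (0.82), and those most like *Ccl8* were *Gpx3* (0.87), *Gm49369* (0.87) and *Grn* (0.86). *Plk3* (0.78) and *Cxcl2* (0.77), the latter a chemokine that attracts neutrophils, came before *Ccl4* as the genes most like *Ccl3*. *Slc7a8* (0.82), *Snapin* (0.78) and *Abcc3* (0.78) were most like *Ccl7*, and *Spty2d1* (0.68), *H3f3b* (0.67) and *Nlrp3* (0.67), a sensor of the inflammasome, were most like *Ccl2*. *Rgs2* (0.74), *Ccl3* and *Slamf7* (0.71) were most like *Ccl4*. After each other, *Ccdc59* and *Cox8a* (both 0.68) were most like *Ccl6*, and *Capzb* (0.74) and *S100a10* (0.73) were most like *Ccl9*. The 28 levels share 1 library, 5 groups and 6 classes and are not independent.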

How the data were processed

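The deposited table held whole-number counts of reads, not molecules, for 27809 genes and 5363 cell barcodes of 1 pooled cDNA library. The authors trimmed reads with cutadapt 2.10 and mapped them with Bowtie2 2.4.2 on GRCm38, as their processing notes name them, kept barcodes above an inflection point and removed small counts by a distribution-based error correction, so the smallest counts left were 6 reads for *Ccl8* and 13 for *Ccl4* and a 0 can hide a few reads. Groups were taken from the hashtag in each barcode name through the deposited notes. Barcodes called doublets (40, or 0.746%) or without a hashtag (8) were left out, and cells with under 500 genes or a mitochondrial share over 0.4 were removed. The deposited call marks a smaller share of doublets than the methods name, and doublets of 1 hashtag cannot be seen by it. Levels are summed reads per 1000000 summed reads. Class gates, lists and ratios (10 CPM added, genes with 10 CPM in 1 group or more) were applied in Python 3.11.15 with numpy 2.4.6, scipy 1.17.1 and pandas 2.3.3, and the ratio was checked on simulated counts. Intervals are exact Poisson for reads and exact Clopper-Pearson for shares. Reads of 1 molecule are not independent, so the intervals are too narrow. Named genes were the 8 members, the gate genes, the list genes and the 3 genes most correlated with each member, among genes with 50 CPM in 1 level or more. Outside the gate, B cells had *Cd79a* of 500 and *Ms4a1* of 50 CPM or more, T or NK cells *Cd3g* or *Ncr1* of 50 or *Nkg7* of 500, and neutrophils *Csf3r* of 500 and *S100a8* of 1000. The members and lists were chosen with earlier results of these data known. Promoter windows and positions are from RefSeq on GRCm38.p6. The hashtag library was not analysed here. Counts over the receptor list are not reported here.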

Additional observations from a re-analysis of the deposited data

Results flagged for a closer look

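For 5 entries the same contrast had opposite signs in the pair of settings in which it could be taken, with both differences outside counting error; the difference between the contrasts was not tested, since each group is 1 sample. *Ccl6* was higher in TAC than in sham cells of WT mice (log2 ratio 0.14) and lower in those of CD3ϵ-/- mice (-0.34), and *Ccl9* was likewise 0.12 and -0.42. *Ccl12* was lower in CD3ϵ-/- than in WT cells of sham hearts (-0.12) and higher after TAC (0.77). *Ccl3* was higher in CD3ϵ-/- than in WT cells of sham hearts (0.47) and lower after TAC (-0.29), and *Ccl4* was 0.65 and -0.05. All but *Ccl12* share the high level in CD3ϵ-/- sham cells, a group that enters only 1 ratio of each pair. Each of these oppositions was lost under an alternative. At the class shares of WT TAC the WT ratio was -0.12 for *Ccl6* and -0.07 for *Ccl9*, and the sham ratio of *Ccl12* was 0.21. The ratio of *Ccl3* after TAC was 0.07 without the 25% of cells highest in dissociation genes, and that of *Ccl4* was 0.002 with median-of-ratios size factors.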

How the results depend on the processing

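Of 520 recomputed values of the 40 ratios under 13 alternatives, 487 kept their direction, and no ratio past 2-fold changed sign. For WT TAC against WT sham the count of members past 2-fold was 1 and became 0 with 50 CPM added and without the top 1% of cells, and 2 (*Ccl12* and *Ccl8*) at the class shares of WT TAC and without the 25% of cells highest in dissociation genes. For CD3ϵ-/- TAC against CD3ϵ-/- sham the count of 4 became 3 with 50 CPM added (*Ccl8* lost) and 2 without that 25%. For CD3ϵ-/- sham against WT sham it went from 0 to 1 with 1 CPM added, with doubled *Csf1r* and *Lyz2* gates and without that 25%. For anti-CD8 TAC against WT TAC it went from 0 to 1 with means of single-cell CPM, 1 CPM added, thinned cells, doubled gates, class shares of WT TAC and without that 25%. The member added was *Ccl8*, lower, each time in these last comparisons. With the class gates applied in reverse order 4 of 8 members kept their leading class. No paired analysis was possible because each group is 1 sample. *Ccl8* is limited by its 116 cells with a read. The cause of these shifts was not tested.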

Other observations

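The 40 barcodes that the deposited table marks as doublets entered no comparison. No gate or cell filter was applied to them, and the intervals do not cover the spread between barcodes. They held *Ccl12* at 423 CPM (95% Poisson interval, 407 to 440) and *Ccl8* at 168 CPM (158 to 179). Over the gated cells of a hashtag group these levels were at most 295 and 40.6 CPM. As a mean of single-barcode CPM, *Ccl12* stood at 278, below the 326 of gated CD3ϵ-/- TAC cells, and *Ccl8* stood at 143. *Ccl2* (349.9 CPM), *Ccl3* (175 CPM) and *Ccl6* (627 CPM) were instead lower in these barcodes than in the gated cells of each group.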
